A study of Mus musculus with 56 samples.

Results

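The dermal papilla libraries of mouse back skin were compared across the 4 zones of dorsal skin that the labels number 1 to 4. They were taken by their column names and were 8 of the 56 libraries of the series, with 2 replicates a zone. Zones 1 and 2 (4 libraries) were set against zones 3 and 4 (4 libraries), and the order over the 4 zones is given beside each result. The animals were CD1 mice at postnatal day 22 that carried 3 reporters, K14-H2BGFP, Crabp1-GFP and Lef1-RFP, and the cells were isolated by FACS, so the Crabp1 and Lef1 levels were linked to the sort. All groups shared strain, reporters and age, and differed in the zone sampled. The series holds 7 sorted populations from the same zones, and the dermal fibroblasts and hair germ stem cells (8 libraries each) serve here as comparison. The labels give no body position for a zone, and they enter the zone as the batch as well, which means that batch effects and zone effects cannot be told apart. They call the replicates biological and do not say whether equal replicate numbers share an animal or whether animals were pooled. The p-values therefore measure the spread between these libraries.

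The dermal papilla is the cluster of specialised fibroblasts at the base of the hair follicle, which sends Wnt, BMP, FGF and activin signals to the stem cells above it. Hox genes encode homeodomain transcription factors. They lie in 4 clusters, and genes at one end of a cluster (low numbers) are used toward the head of the embryo and those at the other end (high numbers) toward the tail, a pattern that adult skin fibroblasts retain in part.

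Values are RPKM, read counts scaled to gene length and to library depth. The depth behind the 8 libraries was 9.24 to 26.0 M reads. Each of the 8 was most like another dermal papilla library. Summed levels of 30 papilla markers were 6988 to 8630 RPKM in zones 1 and 2 and 7689 to 8571 in zones 3 and 4, against 406 to 669 in dermal fibroblasts, and 1 of the 30, Cntn6, was at 0 throughout. Keratinocyte markers summed to 64.9 to 98.2 RPKM in zones 1 and 2 and 62.2 to 106 in zones 3 and 4, against 3604 to 5256 in hair germ stem cells. The replicate 2 library of zone 2 stood apart. Its mean correlation across genes with the other 7 was 0.854, against 0.885 to 0.908 for the others, and 10813 genes reached 1 RPKM in it, against 11357 to 11809. Hoga1 stood at 1018 RPKM there, against 7.49 to 17.1 in the other 7 libraries. Krt14 stood at 1.24 to 1.86 RPKM in zones 1 and 2 and 2.43 to 5.11 in zones 3 and 4. Results that rest on the replicate 2 library of zone 2 are given with and without it.

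Few genes separated zones 1 and 2 from zones 3 and 4. Of 12855 tested genes, limma with Benjamini-Hochberg adjustment called 3 at an adjusted p under 0.05 (0.0233%), and all 3 were lower in zones 1 and 2: Hoxc10, Slc12a1 and Pcp4. At an unadjusted p under 0.05 there were 801 genes (6.23%), of which 389 (3.03%) had a positive and 412 (3.2%) a negative difference. The median difference over all tested genes was -0.01 on the log2 scale. Without the filter on low values limma called 0 genes, with adjusted p of 0.0588 for Hoxc10, 0.429 for Slc12a1 and 0.0588 for Pcp4. In a fit of 2 groups of 4 libraries without zone means, limma called Hoxc10 (adjusted p = 0.00325) and neither Slc12a1 nor Pcp4 (adjusted p = 0.676 for each). In 460 genes (3.58%) the 4 libraries of zones 1 and 2 did not overlap the 4 of zones 3 and 4. All differences are zones 1 and 2 minus zones 3 and 4 in log2(RPKM + 1), where the added 1 shrinks the differences of genes with low levels.

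**Figure D1:**
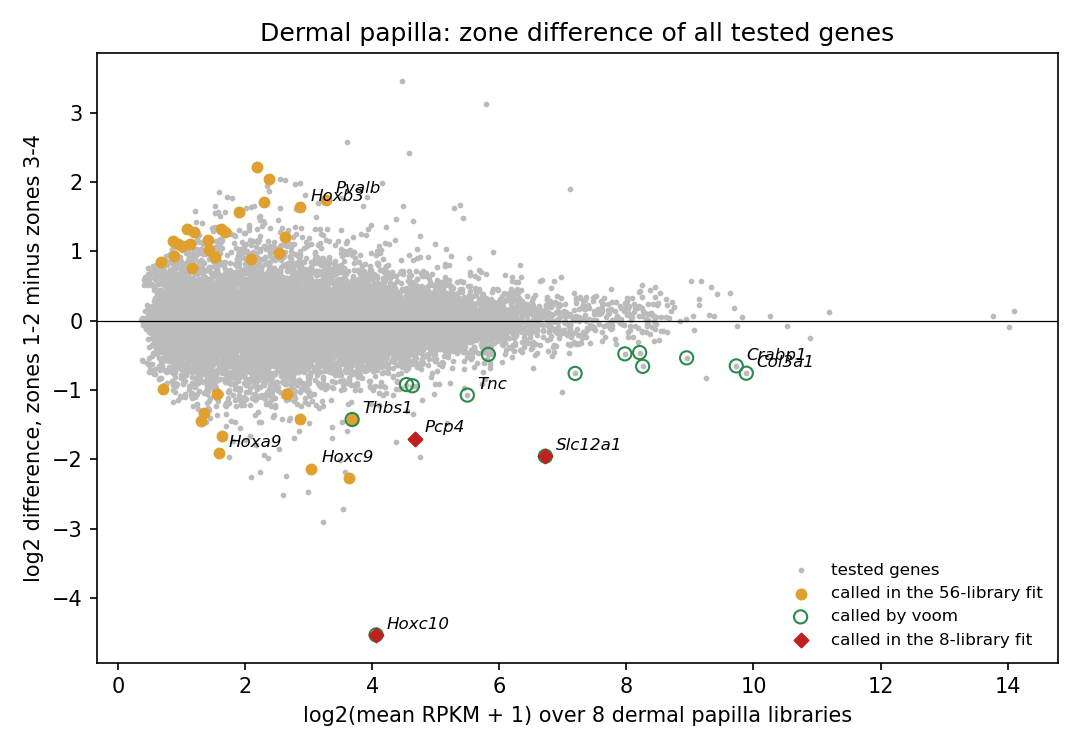
Log2 difference of zones 1 and 2 minus zones 3 and 4 (vertical axis) against log2(mean RPKM + 1) over the 8 dermal papilla libraries (horizontal axis), 1 point for each of 12855 tested genes. Diamonds mark the 3 genes called in the fit of these 8 libraries, filled circles the 36 called when the spread was estimated over all 56 libraries, and open circles the 14 called by voom on recovered reads; the voom calls lie below 0.

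Hoxc10, a posterior gene of the HoxC cluster (chr15:102966796-102971898 in GRCm38), had the largest called difference. It stood at 0.110 and 0 RPKM in the zone 1 libraries and at 0 and 0.895 in those of zone 2, against 15.0 and 15.7 in zone 3 and 54.5 and 39.1 in zone 4. Behind these values lay 4, 0, 0 and 20 reads in zones 1 and 2, against 499, 669, 2207 and 864 reads in zones 3 and 4. The gene was thus near 0 in every library of zones 1 and 2, and each zone 4 library was above each zone 3 library. The difference was -4.53 (SE 0.34, limma, Benjamini-Hochberg adjusted p = 0.00136), or -4.76 without the zone 2 replicate 2 library (limma adjusted p = 0.00227), and it was called with any 1 of the 8 libraries left out. It was -6.97 with a pseudocount of 0.1 in place of 1 and -8.66 by voom.

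Slc12a1 encodes a sodium-potassium-chloride cotransporter best known from the kidney (chr2:125152510-125230002 in GRCm38). Its levels were 17.6 and 22.4 RPKM in zone 1 and 57.0 and 102 in zone 2, against 105 and 140 in zone 3 and 185 and 209 in zone 4. The zone means ran in one order, although the highest zone 2 library almost reached the lowest zone 3 library. The difference was -1.95 (SE 0.20, limma, Benjamini-Hochberg adjusted p = 0.0126) and remained called without the zone 2 replicate 2 library (limma adjusted p = 0.00532). It was also called without replicate 1 of zone 2, and lost the call when any 1 of the 6 libraries of zones 1, 3 and 4 was left out (limma adjusted p up to 0.0969).

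Pcp4 encodes a small calmodulin-binding protein first described in Purkinje cells (chr16:96467606-96525793 in GRCm38). It stood at 7.44 and 7.43 RPKM in zone 1 and at 14.0 and 12.7 in zone 2, against 22.3 and 21.6 in zone 3 and 59.5 and 50.2 in zone 4. No library of one zone overlapped those of the next. The difference was -1.70 (SE 0.18, limma, Benjamini-Hochberg adjusted p = 0.0126), and without the zone 2 replicate 2 library limma gave an adjusted p of 0.0602. Of the 8 fits that leave out 1 library, 1 called Pcp4, that without replicate 1 of zone 2. Pcp4 was not called when the spread was estimated over all 56 libraries (adjusted p = 0.848) or by voom (adjusted p = 0.317).

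**Figure D2:**
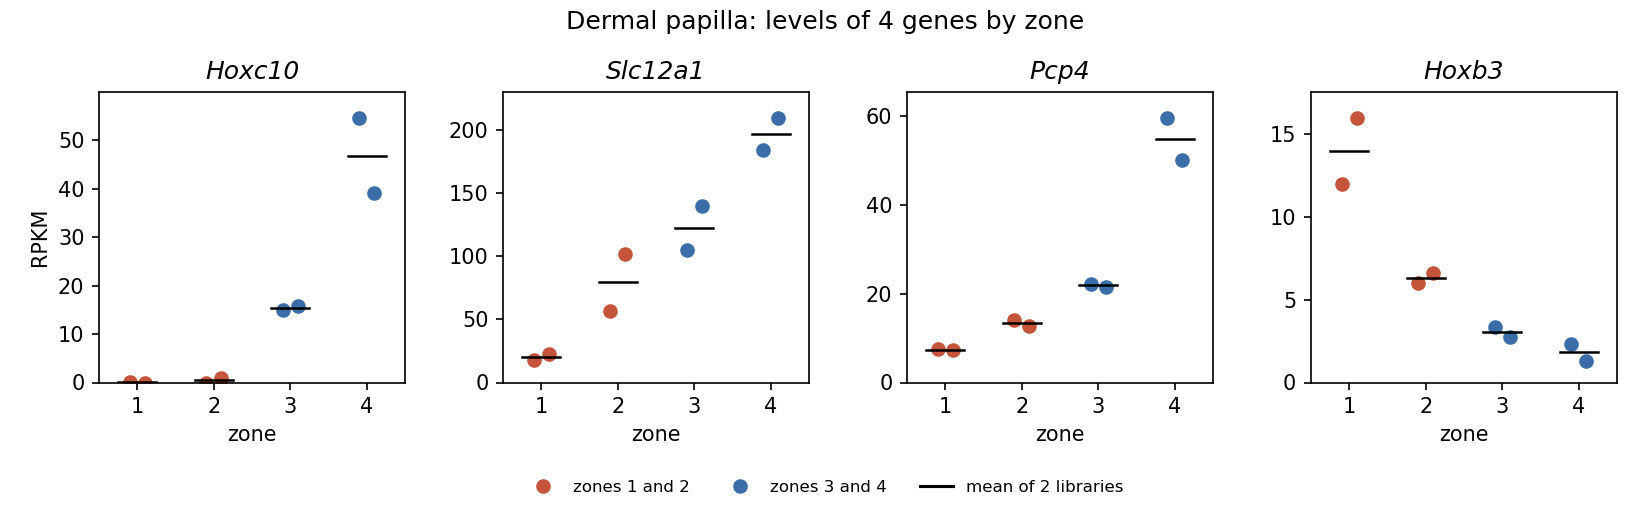
RPKM (vertical axis, from 0, with its own scale in each panel) of Hoxc10, Slc12a1, Pcp4 and Hoxb3 in zones 1 to 4 (horizontal axis), 1 point a library and a line at the mean of 2. Hoxc10 is near 0 in zones 1 and 2 and reaches 54.5 in zone 4, Slc12a1 and Pcp4 have zone means in rising order, and Hoxb3 has them in falling order.

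The promoters of Slc12a1 and Pcp4 are shown because both genes followed the order of Hoxc10 over the zones. They are RefSeq sequences of build GRCm38.p6, 250 bases before to 50 after a transcript start, from chr2:125152350-125152649 and chr16:96467356-96467655, both plus strand. Capitals mark TTTAT, a core found in sites bound by posterior Hox proteins, searched on both strands.
Slc12a1: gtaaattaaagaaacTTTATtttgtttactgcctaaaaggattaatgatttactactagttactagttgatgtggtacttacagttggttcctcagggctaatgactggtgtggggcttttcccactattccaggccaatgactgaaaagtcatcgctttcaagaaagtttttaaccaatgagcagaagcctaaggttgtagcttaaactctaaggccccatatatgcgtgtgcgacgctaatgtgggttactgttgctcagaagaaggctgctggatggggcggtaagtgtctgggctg
Pcp4: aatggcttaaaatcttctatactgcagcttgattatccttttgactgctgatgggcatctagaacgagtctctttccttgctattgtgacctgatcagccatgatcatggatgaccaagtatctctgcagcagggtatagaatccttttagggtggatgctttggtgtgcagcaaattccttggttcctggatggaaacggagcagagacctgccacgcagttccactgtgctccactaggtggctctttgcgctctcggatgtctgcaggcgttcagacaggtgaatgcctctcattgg
The Slc12a1 window held 1 match, 235 bases before the transcript start of that window, and the Pcp4 window held 0. That Slc12a1 start lies downstream of the gene start given above, so the match is nearer to the gene start. Of 32851 promoters of that length, 13143 held at least 1 match, so these letters are common, and a match is a description of the sequence only.

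Across the 4 zones, the F test of limma called the same 3 genes (0.0233% of 12855; 699 genes, 5.44%, at an unadjusted p under 0.05). Their slopes from zone 1 to zone 4 were 2.00 log2 units per zone step for Hoxc10 (SE 0.15), 1.04 for Slc12a1 (SE 0.09) and 0.88 for Pcp4 (SE 0.08). By the slope limma called 4 genes (0.0311%; 857, or 6.67%, at an unadjusted p under 0.05), these 3 and Hoxc9, the neighbour of Hoxc10 in the cluster. The slope of Hoxc9 was 1.12 (SE 0.14, limma adjusted p = 0.0405), and its call was lost with any 1 of the 8 libraries left out (limma adjusted p of 0.0782 to 0.366), by voom (adjusted p = 0.173) and without the filter (limma adjusted p = 0.154). Its F test gave a limma adjusted p of 0.236. Of the 8 fits that leave out 1 library, 8 called the slope of Hoxc10, 7 that of Slc12a1 and 5 that of Pcp4. The slope call of Pcp4 was lost by voom (adjusted p = 0.187) and over 56 libraries (limma adjusted p = 0.581). Without the filter, the slope calls of Hoxc10 and Slc12a1 were lost (limma adjusted p = 0.0628 and 0.154). That of Pcp4 remained without the filter (limma adjusted p = 0.0372). Voom called 22 genes by the slope (0.172%) and the fit over 56 libraries 35 (0.272%). Voom called 8 genes by its F test (0.0625%) and the fit over 56 libraries 67 (0.521%). Without the zone 2 replicate 2 library, the F test called Hoxc10 and Slc12a1. When any 1 of the 6 libraries of zones 1, 3 and 4 was left out, it called 0 genes. Neighbouring zones, with 2 libraries a side, gave 0 calls in limma for zone 1 minus zone 2, zone 2 minus zone 3 and zone 3 minus zone 4, with 845 (6.57%), 639 (4.97%) and 534 (4.15%) genes at an unadjusted p under 0.05. Voom called 0 genes in each of these pairs, and the fit over 56 libraries called 26 (0.202%), 14 (0.109%) and 14 (0.109%). The largest step of Hoxc10 lay between zones 2 and 3 (-3.57), that of Slc12a1 between zones 1 and 2 (-1.88) and that of Pcp4 between zones 3 and 4 (-1.28).

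Hox genes were then taken cluster by cluster. A low gene can pass the filter on low values through 1 group alone, so counts of the members that passed are a description. In the HoxC cluster, 6 of 9 genes passed that filter (at least 1 RPKM in 2 libraries), and Hoxc10 was called. Of the 6, 1 had a positive and 5 a negative difference. At an unadjusted p under 0.05 there were 1 positive and 2 negative, beside 3.03% and 3.2% of all tested genes. Of these 6, the libraries of zones 1 and 2 lay wholly below those of zones 3 and 4 in Hoxc9 and Hoxc10, beside 2.13% of all tested genes that lay so. Hoxc9 stood at 0.457 and 0.189 RPKM in zone 1 and at 5.11 and 4.98 in zone 2, against 7.97 and 11.2 in zone 3 and 16.6 and 11.1 in zone 4. Both zone 1 libraries were lowest, and zone 2 lay between zone 1 and zones 3 and 4 (difference -2.13, SE 0.31, limma adjusted p = 0.161). The anterior member Hoxc4 stood at 26.5 to 62 RPKM in zones 1 and 2 and 25.8 to 39.7 in zones 3 and 4. Hoxc6 stood at 27.0 to 55.7 RPKM in zones 1 and 2 and 44.5 to 51.0 in zones 3 and 4, and Hoxc8 at 21.9 to 62.7 in zones 1 and 2 and 35.5 to 70.6 in zones 3 and 4. All 3 were expressed in every library, and their zone ranges overlapped.

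Of the posterior HoxA genes, Hoxa9 and Hoxa10 were low, and Hoxa11 and Hoxa13 were listed at 0 in all 8 libraries. Of 11 members, 8 passed the filter and these 8 had negative differences, with a median of -1.01 (-0.57 without the zone 2 replicate 2 library), and limma called 0. At an unadjusted p under 0.05 there were 3, all negative, beside 3.2% of all tested genes. The fit over 56 libraries called 2 lower, beside 0.101% of all tested genes. Hoxa9 stood at 0 and 0 RPKM in zone 1 and at 0.0477 and 0.318 in zone 2, against 0.874 and 1.59 in zone 3 and 5.92 and 7.15 in zone 4. Hoxa10 stood at 0, 0, 0.0123 and 0 RPKM in zones 1 and 2, against 0.165 and 0.444 in zone 3 and 10.8 and 1.02 in zone 4, so that 1 library made most of its level. These 2 were the HoxA members whose libraries did not overlap, with 2.13% of all tested genes lying so. Their differences were -1.91 (SE 0.35) for Hoxa9 and -1.33 (SE 0.53) for Hoxa10.

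HoxB genes had differences of the other sign. Of 10 members, 6 passed the filter and these 6 had positive differences, with a median of 1.31 (1.14 without the zone 2 replicate 2 library), and limma called 0. At an unadjusted p under 0.05 there were 4, all positive, beside 3.03% of all tested genes. The fit over 56 libraries called 1 higher, Hoxb3, beside 0.179% of all tested genes. In Hoxb2, Hoxb3 and Hoxb6 the libraries of zones 1 and 2 lay wholly above those of zones 3 and 4, as in 1.45% of all tested genes. Hoxb3 (chr11:96307101-96347930 in GRCm38) stood at 12 and 15.9 RPKM in zone 1 and at 6.02 and 6.58 in zone 2, against 3.33 and 2.73 in zone 3 and 2.34 and 1.33 in zone 4 (difference 1.64, SE 0.31, limma adjusted p = 0.422; 1.61 without the zone 2 replicate 2 library). Its zone means thus ran opposite to those of Hoxc10. Hoxb5, Hoxb6 and Hoxb7 were largely limited to zone 1. Hoxb5 had 2.68 and 6.45 RPKM in zone 1 and 0.264 and 0 in zone 2, against 0 in all 4 libraries of zones 3 and 4. Hoxb6 had 3.57 and 5.16 RPKM in zone 1 and 0.116 and 0.389 in zone 2, against at most 0.0358 in zones 3 and 4. In the HoxD cluster, 5 of 9 genes passed the filter, with 0 called and 0 at an unadjusted p under 0.05. Hoxd8, its highest member, stood at 15.4 to 31.4 RPKM in zones 1 and 2 and 8.01 to 19.4 in zones 3 and 4. No HoxD member that passed the filter separated zones 1 and 2 from zones 3 and 4 without overlap. Hoxb13, Hoxd12 and Hoxd13 were listed at 0 in all 8 libraries.

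**Figure D3:**
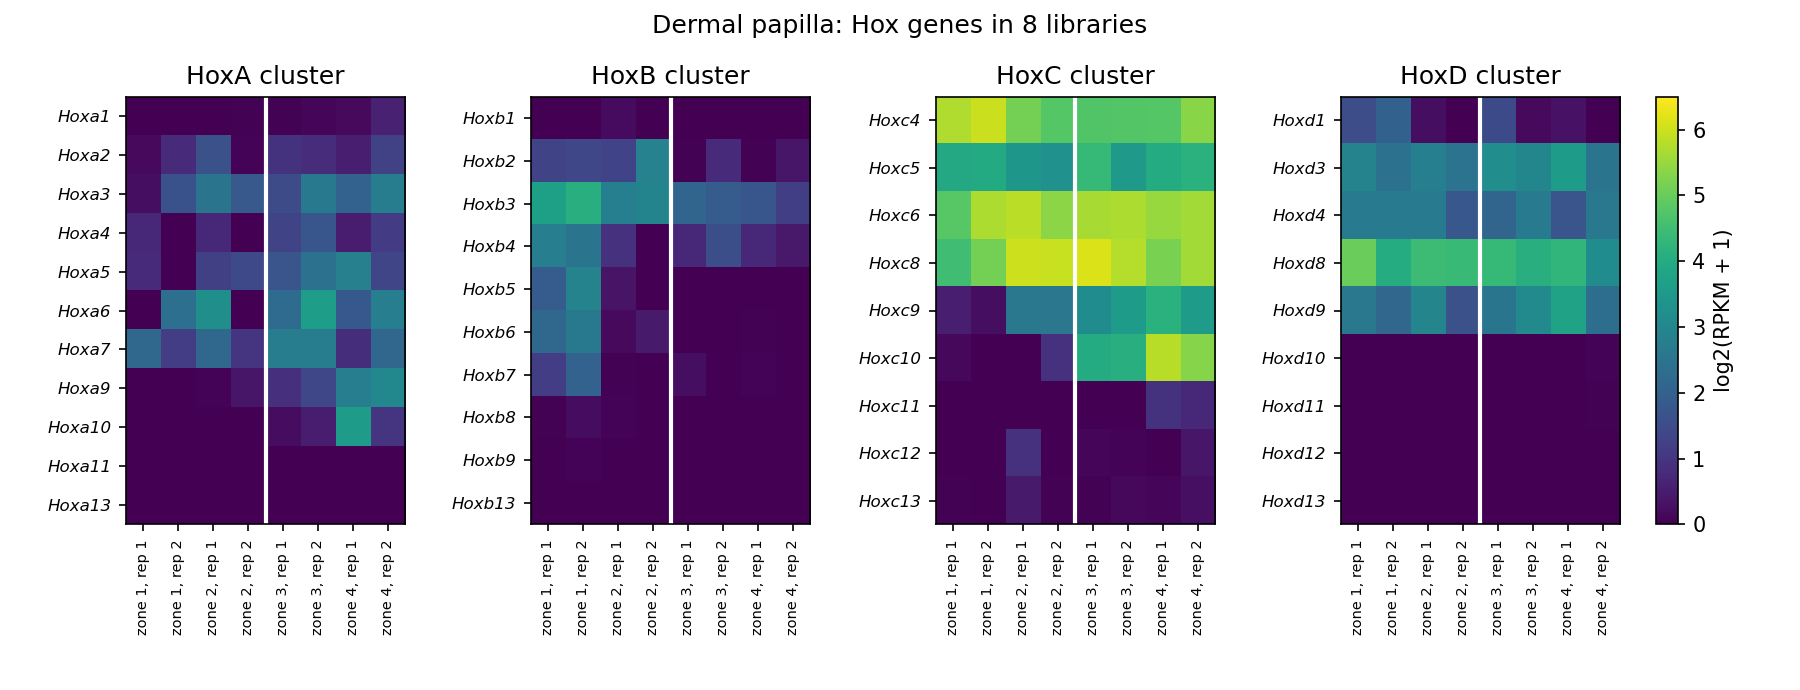
Levels of all Hox genes of the 4 clusters in the 8 dermal papilla libraries, as log2(RPKM + 1) by colour, genes in cluster order down the page and libraries of zones 1 to 4 from left to right, with a white line between zone 2 and zone 3. Hoxa9, Hoxa10, Hoxc9 and Hoxc10 are brightest right of the line, Hoxb3 to Hoxb7 brightest in zone 1, and Hoxc6 and Hoxc8 bright in all libraries.

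Other factors that mark body position mostly had small differences. Of 20 tested genes in that list, 17 had a positive difference (median 0.25), 3 had an unadjusted p under 0.05, all positive, beside 3.03% of all tested genes, and limma called 0. The fit over 56 libraries called 1 higher, beside 0.179% of all tested genes. In 1 member the libraries of zones 1 and 2 lay wholly above those of zones 3 and 4, beside 1.45% of all tested genes. Shox2, a homeobox gene of limb development, stood at 29.4 to 46.3 RPKM in zones 1 and 2 and 18.0 to 23.5 in zones 3 and 4. Alx4 and Tbx15, the list's highest members, had differences of 0.02 (SE 0.16) and -0.25 (SE 0.19). Pax1, a gene of shoulder girdle and vertebral development, was named after its values were seen. It stood at 1.03 and 1.60 RPKM in zone 1 and at 14.2 and 12.4 in zone 2, against 3.73 and 3.82 in zone 3 and 0.806 and 0.721 in zone 4. Both zone 2 libraries were above all others, with zone 3 next. Pax1 was chosen for this pattern, so no test of it is given here and its levels are a description.

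A few other low genes had their maximum in a single zone. They were chosen for that after their values were seen, so no test of them is given here and their levels too are a description. Hcrtr2, an orexin receptor, stood at 0.379 and 0.667 RPKM in zone 1, 3.26 and 4.5 in zone 2, 0.757 and 1.30 in zone 3 and 0.748 and 0.673 in zone 4. Cldn19, a tight junction protein, reached 1.84 and 4.39 RPKM in zone 2 and at most 0.287 elsewhere. For both, the highest value was that of the replicate 2 library of zone 2, and Cldn19 passed the filter through its zone 2 libraries alone. Cd34, a cell surface glycoprotein of skin fibroblasts, bulge stem cells and vessels, stood at 6.12 and 5.65 RPKM in zone 1 and at 0.309 to 1.72 in the other 6 libraries. Hapln1, which links hyaluronan to proteoglycans, stood at 5.23 and 4.55 RPKM in zone 4 and at most at 0.873 elsewhere, and Prok2, a secreted prokineticin, at 4.97 and 5.20 in zone 4 and at most at 1.63 elsewhere. Hapln1 passed the filter through its zone 4 libraries alone. Endothelial markers, whose list is separate from Cd34, summed to 24.03 to 40.7 RPKM in zones 1 and 2 and 16.6 to 32.5 in zones 3 and 4. None of the 12 was at 0 in all libraries. The dermal fibroblast marker list, which includes Cd34, summed to 2080 and 1762 RPKM in zone 1 and 1806 to 2982 in the other 6 libraries. The part of either cell type in the level of Cd34 was not tested.

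No papilla marker was called by limma. Of 29 tested papilla markers voom called 1 (Prlr, lower), beside 0.109% of all genes voom tested. At an unadjusted p under 0.05 there were 5 negative and 1 positive, beside 3.2% and 3.03% of all tested genes, or 3 negative and 1 positive without the zone 2 replicate 2 library. In all, 9 had a positive and 20 a negative difference, with a median of -0.14. Igfbp3, which binds insulin-like growth factors, stood at 1715 to 3039 RPKM in zones 1 and 2 and 1980 to 2372 in zones 3 and 4 (0.13, SE 0.15). Inhba, an activin subunit, had a difference of -0.25 (SE 0.15), Bmp4 of 0.05 (SE 0.13) and Rspo3, an enhancer of Wnt signalling, of -0.14 (SE 0.13). In 2 markers the libraries of zones 1 and 2 lay wholly below those of zones 3 and 4, beside 2.13% of all tested genes. Prlr, the prolactin receptor, stood at 204, 223, 291 and 280 RPKM in zones 1 and 2, against 304, 363, 354 and 339 in zones 3 and 4 (-0.46, SE 0.12, limma adjusted p = 0.666). Fgf7, a growth factor for epithelial cells, stood at 86.9, 92.8, 108 and 83.4 RPKM in zones 1 and 2, against 134, 137, 147 and 112 in zones 3 and 4 (-0.51, SE 0.15).

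Wnt and BMP genes gave 0 calls in limma, in the fit over 56 libraries and in voom. Among 11 tested Wnt and R-spondin ligands the median difference was -0.14 and 3 had an unadjusted p under 0.05, all 3 positive, beside 3.03% of all tested genes, with Wnt5a at -0.14 (SE 0.13) and Rspo1 at 0.32 (SE 0.12). Of these ligands, Wnt10b alone did not overlap, beside 2.13% of all tested genes that lay wholly below. It stood at 0 to 0.731 RPKM in zones 1 and 2, against 0.854 to 1.94 RPKM in zones 3 and 4. It passed the filter on low values through zones 3 and 4 alone. Of 12 secreted Wnt inhibitors, Apcdd1 alone did not overlap, beside 2.13% of all tested genes that lay wholly below. It stood at 268 to 327 RPKM in zones 1 and 2 and 349 to 397 in zones 3 and 4. Of 15 BMP, TGF-beta and activin ligands, Bmp3 alone did not overlap, beside 1.45% of all tested genes that lay wholly above. It stood at 41.8, 88.5, 48.8 and 50.2 RPKM in zones 1 and 2, against 37.3, 36.8, 33.4 and 27.0 in zones 3 and 4 (0.70, limma adjusted p = 0.765). Bmp2 stood at 22.9, 8.04, 11.9 and 18.3 RPKM in zones 1 and 2, against 8.53, 12.04, 3.45 and 3.4 in zones 3 and 4 (1.12, SE 0.34, limma adjusted p = 0.765). Bmp6 stood at 3.20, 3.55, 4.12 and 1.42 RPKM in zones 1 and 2, against 2.49, 7.58, 8.57 and 13.2 in zones 3 and 4 (-1.03, SE 0.41, limma adjusted p = 0.781). The ranges of both overlapped. Notch pathway genes (13 tested), Wnt target genes (12) and BMP and TGF-beta target genes (14) gave 0 members at an unadjusted p under 0.05, and so did 18 cell cycle genes. The sort gene Lef1 differed by -0.03 (SE 0.12). Crabp1, the other sort gene of the papilla, stood at 487, 440, 766 and 1017 RPKM in zones 1 and 2, against 913, 822, 1274 and 1065 in zones 3 and 4 (-0.65, SE 0.14), and its ranges overlapped.

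Several matrix genes had lower values in zones 1 and 2, and decorin had higher ones, without reaching a call. All 32 listed collagen and matrix genes were tested and limma called 0. At an unadjusted p under 0.05 there were 8 negative and 1 positive, beside 3.2% and 3.03% of all tested genes. Voom called 4 lower and the fit over 56 libraries 1 lower, beside 0.109% and 0.101% of all genes these fits tested. In 6 of them, Col3a1, Col5a2, Col6a3, Fbn1, Tnc and Thbs1, the libraries of zones 1 and 2 lay wholly below those of zones 3 and 4, and in Dcn wholly above, beside 2.13% and 1.45% of all tested genes. Col3a1, a fibrillar collagen, stood at 632, 622, 768 and 784 RPKM in zones 1 and 2, against 1179, 1070, 1474 and 1036 in zones 3 and 4 (-0.76, SE 0.14). Tnc, the matrix protein tenascin C, stood at 22.3, 20.9, 37.1 and 30.4 RPKM in zones 1 and 2, against 46.5, 44.6, 94.8 and 56.5 in zones 3 and 4 (-1.07, SE 0.19). Dcn, the proteoglycan decorin, stood at 65.7, 49.2, 27.2 and 92.3 RPKM in zones 1 and 2, against 23.2, 18.3, 13.2 and 13.8 in zones 3 and 4 (1.62, SE 0.32). Its difference was 1.19 without replicate 2 of zone 2, and without replicate 1 of zone 2 limma called it (adjusted p = 0.0122). Col1a1, the main collagen of skin, did not share either direction (0.02, SE 0.18), and the list's median was -0.11. Summed dermal fibroblast markers, which include Col3a1 and Dcn, were 1762 to 2109 RPKM in zones 1 and 2 and 2254 to 2982 in zones 3 and 4, against 41211 to 54119 in dermal fibroblasts; none of the 20 was at 0 in all libraries. Of 19 tested members of that list, 12 had a positive and 7 a negative difference, with a median of 0.08 (-0.03 without the zone 2 replicate 2 library), so the lower sum did not hold for most members. Among the abundant members, Col3a1 and Dpt had negative differences (-0.76 and -0.54). The part of other fibroblasts in these differences was not tested. In bulk libraries such as these, fewer cells of a type and less RNA per cell cannot be told apart.

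Immediate early genes, which respond to stimulation and to cell dissociation, had mostly positive differences. Of 24 tested, 23 were positive with a median of 0.42. Limma and the fit over 56 libraries called 0 of them, voom called 0 of those it could test (not Fosb or Egr1), and 9 had an unadjusted p under 0.05, all positive, beside 3.03% of all tested genes. Fosb stood at 965, 590, 633 and 565 RPKM in zones 1 and 2, against 507, 505, 288 and 573 in zones 3 and 4, and Egr1 differed by 0.40 (SE 0.17). Junb and Nr4a1 were the members whose libraries did not overlap, beside 1.45% of all tested genes that lay wholly above. The list's summed level was 3553 to 5805 RPKM in zones 1 and 2 and 2645 to 4004 in zones 3 and 4, so that the sums overlapped.

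**Figure D4:**
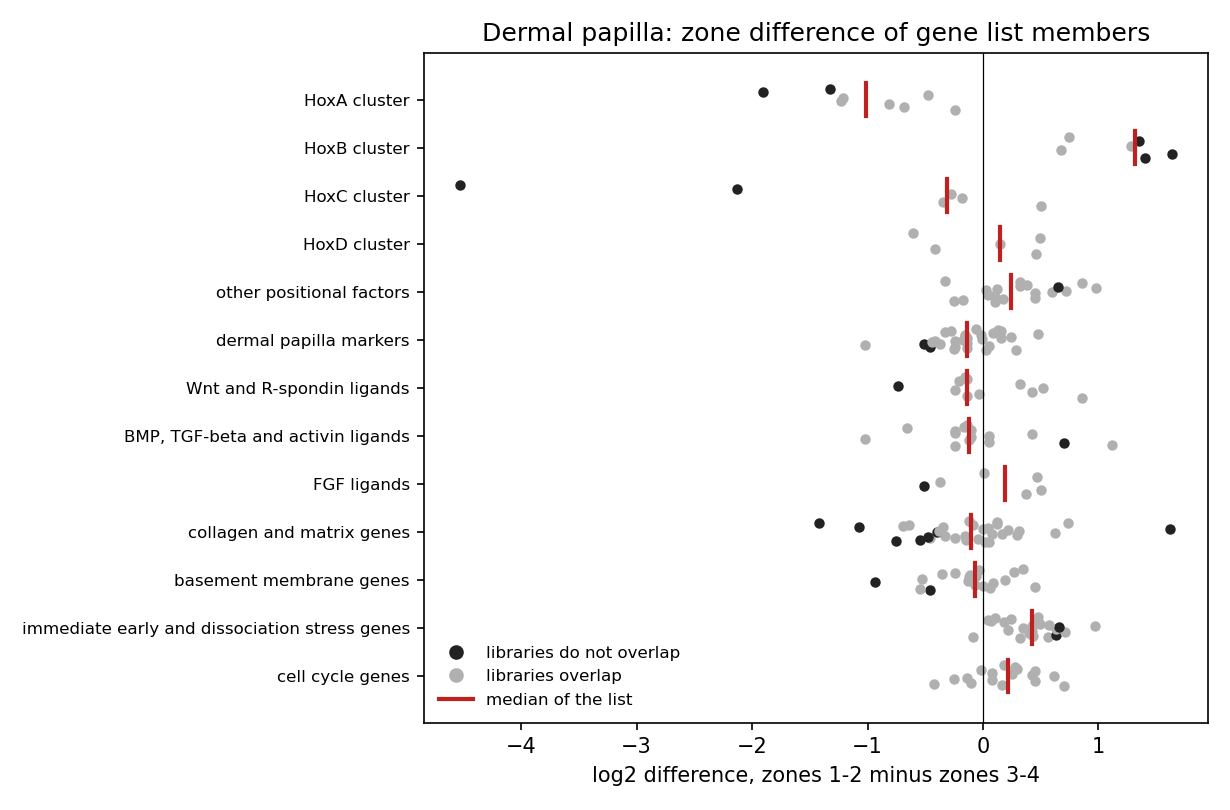
Log2 difference of zones 1 and 2 minus zones 3 and 4 (horizontal axis) for each tested member of 13 gene lists (down the page), with the list median as a bar; dark points are genes whose 4 libraries of zones 1 and 2 do not overlap the 4 of zones 3 and 4. HoxA members lie left of 0 and HoxB members right of 0, with medians of -1.01 and 1.31, and most other lists have medians near 0.

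The number of genes called differed between fits. With the spread estimated over all 56 libraries, limma called 36 genes (0.28%), 23 higher (0.179%) and 13 lower (0.101%) in zones 1 and 2, and 26 of the 36 had a mean under 5 RPKM. That spread was pooled over the 7 sorted populations, so the p-values of this fit do not measure the spread between papilla libraries alone. Of the Hox genes this fit called Hoxa9, Hoxa10, Hoxc9 and Hoxc10 lower and Hoxb3 higher. Voom on reads recovered from the RPKM called 14 of 12802 genes (0.109%), all lower in zones 1 and 2 and none with a mean under 5 RPKM. They included Col3a1, Tnc, Thbs1, Prlr, Crabp1, Lama4 and Dpt. Hoxc10 and Slc12a1 were called in all 3 fits, and Thbs1 by voom and by the fit over 56 libraries.

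The zone difference of the papilla was set against the same difference in dermal fibroblasts and in hair germ stem cells, each in a fit of 16 libraries. In dermal fibroblasts Hoxc10 stood at 0, 0, 0.248 and 1.02 RPKM in zones 1 and 2, against 10.02, 9.64, 33.4 and 35.2 in zones 3 and 4 (-3.95, SE 0.27, limma adjusted p = 1.58e-05). Slc12a1 was far lower than in the papilla but followed the same order, with 0.169 to 1.86 RPKM in zones 1 and 2 and 3.07 to 9.10 in zones 3 and 4 (-1.65, SE 0.23, limma adjusted p = 0.0104). In all, 16 of 13922 genes (0.115%) were called for the zone difference in dermal fibroblasts. Limma called 0 of 13922 genes for a difference between papilla and fibroblasts in this contrast, with 895 (6.43%) at an unadjusted p under 0.05, voom called 5 (0.0361%) and the fit over 56 libraries 7 (0.0503%). The voom calls, named after they were seen, were Dpt, Col3a1, Pappa, Coch and Col11a1. For Hoxc10 the papilla minus fibroblast value was -0.57 (SE 0.39), and for Slc12a1 it was -0.31 (SE 0.32).

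In hair germ stem cells Hoxc10 stood at 0 in 6 of 8 libraries and at 1.46 and 0.318 RPKM in the others. The papilla minus hair germ value of Hoxc10 was -4.75 (SE 0.49, limma adjusted p = 0.0028), the 1 call among 14519 genes (0.00689%), and -4.98 without the zone 2 replicate 2 library of the papilla (limma adjusted p = 0.00406). There were 827 genes (5.7%) at an unadjusted p under 0.05, voom called 0 and the fit over 56 libraries 4 (0.0276%). Hoxa9 had a negative difference in all 3 populations (-1.53, SE 0.26, in hair germ stem cells), whereas Hoxb3 stood at 8.93 to 13.5 RPKM in zones 1 and 2 of the hair germ and 7.06 to 13.3 in its zones 3 and 4.

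**Figure D5:**
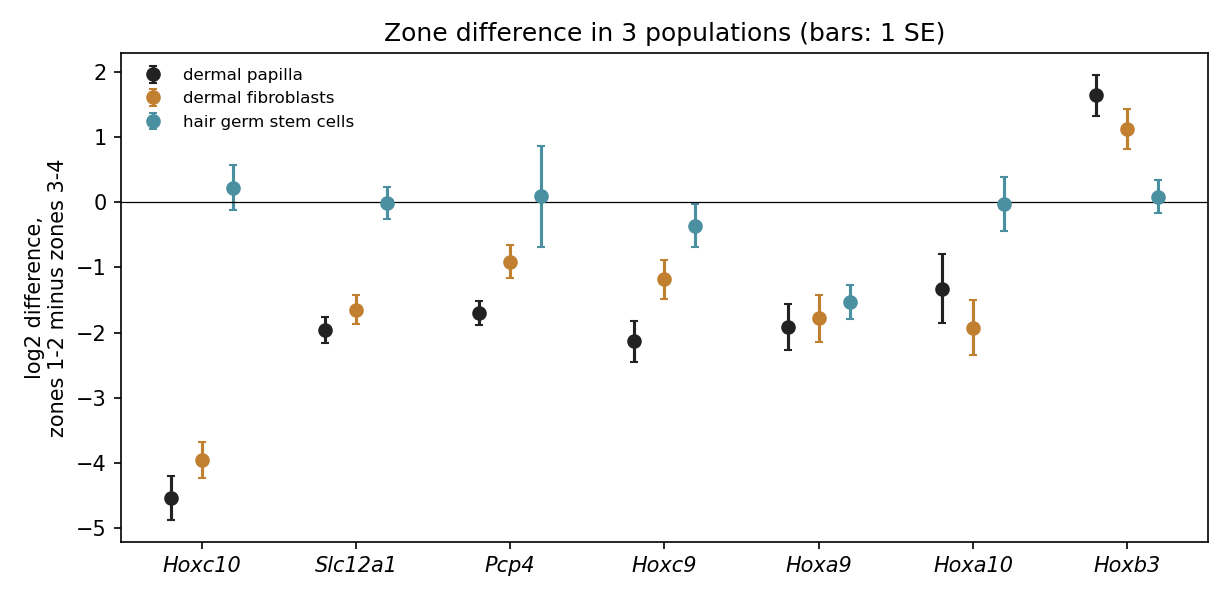
Log2 difference of zones 1 and 2 minus zones 3 and 4 (vertical axis) for 7 genes in dermal papilla, dermal fibroblasts and hair germ stem cells, with bars of 1 SE; the values of the last 2 come from fits of 16 libraries each. Papilla and fibroblasts lie on the same side of 0 for all 7 genes, while hair germ values lie near 0 for most and at -1.53 for Hoxa9.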

How the data were processed

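RNA-seq values were RPKM deposited by the authors for 56 libraries, 8 of them dermal papilla. Per the submitters' processing notes, the build was mm10 and the tools included DESeq2, edgeR, limma, featureCounts and STAR 2.4.0; what each did, and whether strand was used, is not stated there, so overlapping and antisense genes cannot be separated. Per the labels' protocols, RNA of RIN 8.8 or above (6 ng) was amplified to cDNA before library preparation.

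RPKM were not counts, so log2(RPKM + 1) was tested with limma 3.58.1 in R 4.3.3. Genes with at least 1 RPKM in at least 2 of the libraries compared were kept, a mean per zone was fitted, and two-sided p-values were adjusted by Benjamini-Hochberg over all tested genes, with calls at an adjusted p under 0.05. Differences against dermal fibroblasts and hair germ stem cells were interaction terms in fits of 16 libraries. The steps of the RPKM gave whole reads in every library for 22180 of 22233 genes (99.8%, within 0.02 reads), which allowed voom on recovered reads as an alternative; the depths of 9.24 to 26.0 M reads come from these. Of these steps, the limma test of the zone difference of the papilla was tried on simulated data with independent noise. Changes were placed only in genes above a set mean level. The trial therefore did not cover a library that stands apart or changes in low genes.

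Genes were named by rule: the called genes with no overlap between zones 1 and 2 and zones 3 and 4, the genes behind the labels, and called or highest members of each list, of which some are summarised as counts only. Other Hox genes, list members named for not overlapping, and genes called only by voom or over 56 libraries were chosen after their values were seen. The comparison and the lists were chosen with earlier results of these data known. Alternatives were another pseudocount (0.1), no filter, quantile and median-of-ratios scaling, a replicate block, 2 groups of 4, a fit over 56 libraries, voom and each library left out; list values without the zone 2 replicate 2 library were added after seeing the data.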

Additional observations from a re-analysis of the deposited data

Results flagged for a closer look

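Among 72 genes and 14 marker sums, 161 groups of 4 libraries were checked, and in 9 of them 1 value stood apart from the other 3. A share of 1 in 20 would give 8.05 of 161. Some of these genes were chosen after their values were seen, and each group of 4 held libraries of 2 zones. The count therefore cannot be compared with that share, and the values are given as values only. Hoxc4 stood at 39.7 RPKM in zone 4 replicate 2, against 25.8 to 26.4 in the other libraries of zones 3 and 4. Hoxa10 stood at 10.8 RPKM in zone 4 replicate 1, against 0.165 to 1.02. Dkk2, a secreted Wnt regulator, stood at 227 RPKM in zone 4 replicate 2, against 362 to 387. Hcrtr2 stood at 1.30 RPKM in zone 3 replicate 2, against 0.673 to 0.757. In zones 1 and 2, the replicate 1 library of zone 1 had the lowest Fbn1 level (fibrillin 1, 46.5 RPKM against 48.5 to 48.9) and the highest Fosb level (965 RPKM against 565 to 633).

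The replicate 2 library of zone 2 held the other 3. Hoxb2 stood at 6.36 RPKM, against 1.49 to 1.59 in the other libraries of zones 1 and 2, Hoga1 at 1018 RPKM, against 7.87 to 17.1, and Tmem184b at 541 RPKM, against 8.33 to 10.7. The zone difference of Hoxc10 differed between dermal papilla and hair germ stem cells by -4.75 (SE 0.49) in the test of that difference.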

How the results depend on the processing

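Genes called for zones 1 and 2 minus zones 3 and 4 numbered 3, against 0 without the filter, 36 over 56 libraries, 14 by voom, 1 with 2 groups of 4 libraries, and 1 to 5 with a library left out (5 without zone 2 replicate 1, 2 without zone 2 replicate 2 and 1, Hoxc10, without any of the other 6). The F test over the zones called 3, against 0 without the filter, 67 over 56 libraries, 8 by voom and 0 to 7 with a library left out. The slope called 4, against 1 without the filter, 35 over 56 libraries, 22 by voom and 1 to 4 with a library left out. Neighbouring zones gave 0 calls each, against 26, 14 and 14 over 56 libraries; with a library left out, zone 1 minus zone 2 gave 0 to 14 and zone 2 minus zone 3 gave 0 to 3, the highest in both without zone 2 replicate 1. Papilla minus fibroblasts gave 0, against 6 without the filter, 7 over 56 libraries, 5 by voom and 0 to 3 with a library left out. Papilla minus hair germ gave 1, against 0 with a pseudocount of 0.1, 9 without the filter, 4 over 56 libraries, 0 by voom and 1 to 2 with a library left out. The cause of these changes was not tested. No difference of a followed gene that was called changed sign. With a replicate block the counts were 3, 2, 4, 0, 0, 0, 0 and 1 in the same order, and Hoxc9 lost its slope call (adjusted p = 0.0881); replicate differences of the zones correlated at -0.00484 to 0.0375, so equal numbers were not taken as pairs. With 2 libraries a zone, low genes rest on few reads, and a missed call does not show equal levels.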
